A study of Mus musculus with 9 samples.

Results

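Cohesin is the ring-shaped complex that holds sister chromatids together from replication until anaphase. The 10 genes described here encode its subunits, loader and cofactors: Rec8, Smc1b, Smc1a, Smc3, Stag3, Rad21, Nipbl, Pds5a, Pds5b and Esco2. They were chosen by name, with every probe set of each gene, which gave 24 probe sets of the 34945 that carry a single gene symbol, and 10 of 18193 genes. The values are polysome-bound mRNA of mouse oocytes on Affymetrix mouse whole-genome arrays, 3 arrays at each of 3 stages and 9 in all. Germinal vesicle (GV) oocytes, arrested in prophase, were collected at 0 h, metaphase I (MI) oocytes at 4 h and metaphase II (MII) eggs at 14 h after human chorionic gonadotropin (hCG). All mice had received PMSG, a gonadotropin that stimulates follicle growth, 48 h before hCG; the labels give no strain, genotype or age. A further label of the MI samples, pGVB, has no explanation there.

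In mitotic cells the ring consists of Smc1a, Smc3, the kleisin Rad21 and a Stag subunit, and germ cells build further rings with Smc1b, Rec8 and Stag3. In oocytes, cohesion is laid down before birth and has to last through the long prophase arrest. Separase cleaves Rec8 on chromosome arms at anaphase I, while shugoshin protects it at centromeres until anaphase II. A polysome signal reflects both the amount of an mRNA and the share of it that carries ribosomes, and in bulk samples fewer cells and less RNA per cell cannot be told apart. It says nothing of the protein already present.

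Array medians lay between 12.39 and 13.22, and 53.1% to 54.8% of all probe sets read below 16 on each array, so readings near or below 16 are close to background. All 10 oocyte markers (zona pellucida genes, Gdf9, Bmp15 and the like) had a mean signal no lower than 37.5, the median over genes. Of 14 measured granulosa and cumulus markers, 3 did. One of the 14, Nr5a2, alone read 204, 725 and 404 on the MII arrays. The summed intensity of the 14 was 224 to 614 in GV, 510 to 1049 in MI and 441 to 1094 in MII. The array MI 3 had the highest such sum among MI arrays and the lowest mean correlation with the other arrays of its own stage, 0.885 against 0.899 to 0.913 for the other 8 arrays. The labels speak of biological replicates and of independent sample sets, but nothing ties them to separate animals, so the p-values rest on the spread among these 9 arrays alone, and that spread may be technical. With 3 arrays a stage, precision is limited throughout.

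None of the 10 cohesin genes passed the test in any comparison; from GV to MII, 14.3% of all genes passed. Of 11 other genes of the cohesion cycle, among them genes for its release and acetylation, 5 rose from GV to MII, against 5.46% of all genes. All 11 had a mean signal no lower than the median over genes, where 27.4% of genes passed, rises and falls together. The lists were chosen with earlier results of these data known, and the difference between them was not tested. Rad21, the mitotic kleisin, had the smallest p of the 10 from GV to MII: all 3 of its probe sets were higher on every MII array than on every GV array, and 2 of these 3 passed when every probe set was tested on its own. These were 2 of the 24 cohesin probe sets, against 11% of all probe sets with a single symbol, and most runs without a single array lost each call. Of the subunits specific to germ cells, Rec8 read below 16 on 7 of 9 arrays and Stag3 on 4 of 9. Smc1b, the other such subunit, was measured well above background but varied widely among arrays of a stage. Each gene was represented by its brightest probe set, and changes were tested with limma on log2(intensity + 16) with Benjamini-Hochberg adjustment over 18193 genes at a threshold of 0.05.

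From GV to MI, 0 of the 10 cohesin genes passed, against 0% of all genes, and 0 of the 10 had an unadjusted p under 0.05 (1308 of all genes did). From MI to MII, 0 of 10 passed against 9.32% of all genes, and 0 of 10 had an unadjusted p under 0.05 (3900 of all genes did). From GV to MII, 0 of 10 passed against 14.3%, and only Rad21 had an unadjusted p under 0.05, as 4664 of all genes did. Of the 10, 8 had a mean signal no lower than the median over genes, and among all genes at that signal 17.8% passed from MI to MII and 27.4% from GV to MII. The moderated F test over the 3 stages called 11.6% of genes and none of the 10, whose adjusted p ran from 0.283 (Rad21) to 0.995 (Pds5b). No cohesin gene passed a test of the difference between the steps (0.209% of genes did). The median log2 change of the 10 genes was 0.03 from GV to MI, 0.14 from MI to MII and 0.17 from GV to MII. The same medians over all genes were 0.01, -0.02 and -0.02. Over genes with a mean signal no lower than the median they were 0.02, -0.14 and -0.17. These comparisons share arrays: both steps use the MI arrays, and both comparisons with MII use the MII arrays.

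**Figure D1:**
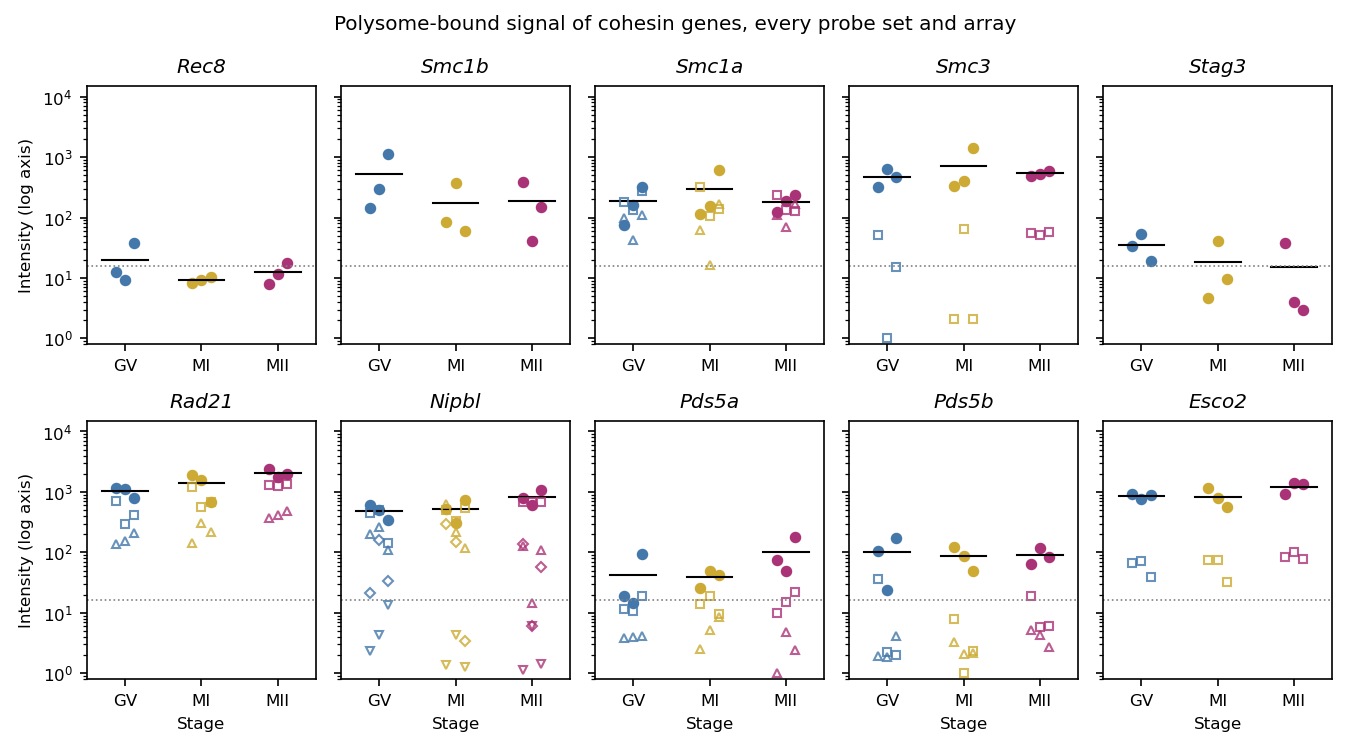
Intensity (log axis) of each cohesin gene by stage, with 1 point per array and probe set. Filled circles are the brightest probe set, black bars its mean over 3 arrays, open symbols the other probe sets, and the dotted line an intensity of 16; all 3 Rad21 probe sets sit higher in MII than in GV, and Rec8 lies at or near the line.

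The subunits found only in germ cells come first. Rec8, the meiotic kleisin, has 1 probe set (1419147_at), which read 12.4, 9.15 and 38.5 in GV, 8.34, 9.14 and 10.4 in MI, and 8.08, 11.7 and 18 in MII. It lay below 16 on 7 of the 9 arrays, so most of these values cannot be told from background, and the stages overlapped. The log2 change was -0.42 from GV to MI (95% interval -1.14 to 0.30) and 0.16 from MI to MII (-0.56 to 0.88). The added 16 makes the log2 scale understate the change of such a dim probe set. Without the array GV 3, which held the highest reading, the change from GV to MI was -0.08 and that from GV to MII 0.08 in place of -0.26. The change from MI to MII was 0.03 without MII 3 and 0.28 without MII 1.

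Stag3, the germ-cell Stag subunit, also has 1 probe set (1460229_at). It read 34.1, 52.6 and 18.8 in GV, 4.63, 40.5 and 9.7 in MI, and 38.6, 4.06 and 2.97 in MII. All 3 GV arrays lay above 16, against 1 of 3 arrays in MI and in MII, and the stages overlapped. The log2 change from GV to MII was -0.84 (95% interval -2.07 to 0.39; adjusted p = 0.402 by limma, n = 3 each), with -0.67 from GV to MI and -0.18 from MI to MII. Single arrays and the pseudocount moved these values: from GV to MII the change was -1.34 without MII 1 and -1.85 with pseudocount 1 (-0.34 with 64), and from GV to MI it was -0.37 without MI 1, -0.43 without GV 2 and -1.10 without MI 2. From MI to MII it was 0.26 without MI 2, 0.05 without MII 2 and 0.09 without MII 3.

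Smc1b, the germ-cell partner of Smc3, gave signal above 16 on every array at its only probe set (1449253_at). It read 145, 296 and 1119 in GV, 83.8, 372 and 59.1 in MI, and 383, 40.3 and 147 in MII. Arrays of the same stage thus differed several-fold, and the ranges of the 3 stages overlapped. The mean was 520 ± 524 in GV, 172 ± 174 in MI and 190 ± 176 in MII (SD, n = 3 each). The log2 change was -1.43 from GV to MI (95% interval -3.69 to 0.83) and -1.32 from GV to MII (-3.58 to 0.94), the widest intervals of the 10 genes. Without the array GV 3 these changes were -0.65 and -0.54; the change from GV to MII was -0.59 without MII 2, and that from GV to MI -2.15 without MI 2. An interval this wide leaves a large fall and a rise both within the error.

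Smc3, the SMC subunit shared by mitotic and meiotic rings, had a mean of 472 ± 161 in GV, 709 ± 600 in MI and 536 ± 56.1 in MII (SD, n = 3 each), with most of the MI spread from MI 3. Its brighter probe set (1450950_at) read 316, 637 and 464 in GV, 328, 397 and 1401 in MI, and 480, 534 and 592 in MII. The MI 3 reading of 1401 stood far above the other MI arrays, and the MII readings lay within the GV range. The log2 change was 0.32 from GV to MI (95% interval -0.89 to 1.52) and 0.22 from GV to MII (-0.98 to 1.43). Without MI 3 the change from GV to MI was -0.32. The dimmer probe set (1450951_at) read 54.6, 50.8 and 57 in MII, but from 1 to 65 on the GV and MI arrays, and its change from MI to MII was 1.23 on the log2 scale (adjusted p = 0.405 over all probe sets).

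Smc1a, the mitotic counterpart of Smc1b, showed no shared direction among its 3 probe sets. The brightest (1417831_at) read 76.6, 164 and 320 in GV, 114, 153 and 615 in MI, and 124, 189 and 237 in MII, again with its highest value on MI 3. Its log2 change was 0.43 from GV to MI, -0.31 from MI to MII and 0.12 from GV to MII (95% interval -1.42 to 1.67; adjusted p = 0.949). Without MI 3 the first became -0.26 and the second 0.39; without GV 1 the first was -0.04 and the third -0.35, and without MII 3 the third was -0.07. The other probe sets changed by -0.21 (1417830_at) and 0.39 (1417832_at) from GV to MII. At the brightest probe sets, high readings of Smc1a and Smc3 on MI 3 came with the highest granulosa marker sum of the MI arrays. Probe set 1417832_at was also highest on MI 3 (168), while 1417830_at of Smc1a (139) and 1450951_at of Smc3 (2.1) were not. The array MII 2 had a granulosa sum of 1094 against 1049 on MI 3, and read 189 for Smc1a and 534 for Smc3. These sums were made up of different genes, so the arrays are not alike in this respect. Nr5a2 read 725 on MII 2 and 13.8 on MI 3, while Inhba read 48.8 and 302. The part of the makeup of MI 3 in its readings was not tested.

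Rad21, the kleisin of mitotic cohesin, has 3 probe sets, and each was higher in MII. The brightest (1455938_x_at) read 1171, 1121 and 807 in GV, 1910, 1545 and 691 in MI, and 2396, 1768 and 2011 in MII. Every MII array lay above every GV array, while MI reached from below the GV range into the MII range. Its mean went from 1030 ± 197 in GV to 2060 ± 316 in MII (SD, n = 3 each), a log2 change of 0.99 (95% interval 0.11 to 1.87; unadjusted p = 0.0313, adjusted p = 0.142 by limma). The suffix x in its name marks a probe set that the manufacturer's naming holds open to cross-hybridisation with other transcripts.

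The other Rad21 probe sets carry no such mark. Probe set 1416161_at read 716, 296 and 411 in GV, 1200, 553 and 670 in MI, and 1300, 1268 and 1374 in MII. Probe set 1416162_at read 140, 153 and 209 in GV, 141, 306 and 218 in MI, and 366, 416 and 479 in MII. In both, all MII arrays lay above all GV and MI arrays. With every probe set as a feature of its own, limma's log2 change from GV to MII was 1.53 (SE 0.38, adjusted p = 0.0388) for the first and 1.26 (SE 0.29, adjusted p = 0.0304) for the second, and 0.99 (adjusted p = 0.159) for the brightest. Of the 24 cohesin probe sets, these 2 passed from GV to MII, against 11% of all probe sets with a single symbol.

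The Rad21 calls hung on the processing. With the mean of its probe sets, Rad21 as a gene passed from GV to MII (log2 change 1.26, adjusted p = 0.00518) and from MI to MII (0.79, adjusted p = 0.045). With the brightest probe set it passed from GV to MII after quantile normalization (1.26, adjusted p = 0.0297), after scaling to a common 95th percentile (1.21, adjusted p = 0.0396) and without MI 3 (0.99, adjusted p = 0.0323). The change from MI to MII, 0.68, was 0.25 without MI 3. The call of 1416161_at was lost without GV 2, GV 3, MI 3, MII 1, MII 2 or MII 3 (adjusted p from 0.0515 to 0.11) and with pseudocount 1 (0.0983). That of 1416162_at was lost without GV 1, GV 2, MII 1, MII 2 or MII 3 (0.0605 to 0.0978), with pseudocount 1 (0.121) and with an intensity trend (0.117). The change stayed above 0 in each of these runs, from 1.16 to 1.56 on the log2 scale. Leaving out MI 3 and the intensity trend alter only the p-value of this change, so its direction could not turn there.

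Nipbl, which loads cohesin onto chromatin together with Mau2, gave a mixed picture over 5 probe sets. The brightest (1430309_at) read 601, 502 and 338 in GV, 523, 304 and 721 in MI, and 789, 609 and 1073 in MII, so that MII lay just above the GV range and overlapped MI. Probe set 1437158_at read 443, 495 and 144 in GV, 499, 330 and 535 in MI, and 677, 671 and 669 in MII, with MII above all other arrays. Their log2 changes from GV to MII were 0.76 (95% interval -0.11 to 1.63; adjusted p = 0.264 over genes) and 1.04 (0.04 to 2.04; adjusted p = 0.205 over probe sets).

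The other 3 Nipbl probe sets did not share this pattern, and none passed. Probe set 1453576_at, lower on average in MII, read 198, 264 and 108 in GV, 622, 214 and 116 in MI, and 128, 14.6 and 109 in MII, a log2 change of -1.71 from MI to MII (95% interval -3.45 to 0.03; adjusted p = 0.278). Probe set 1443992_at ranged from 3.47 to 296 with every stage overlapping, and 1442103_at lay below 16 on all 9 arrays. With the mean of all 5 probe sets, Nipbl changed by -0.21 from MI to MII in place of 0.70, and by 0.03 from GV to MII. Which transcripts the differing probe sets report was not tested.

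Pds5a and Pds5b bind the ring and take part both in its release and in its protection. The brightest probe set of Pds5a (1425082_s_at) read 18.8, 14.3 and 95.3 in GV, 25.9, 48.9 and 42.2 in MI, and 75.2, 49.5 and 180 in MII. All MII arrays lay above all MI arrays by a narrow margin, while GV 3 lay within the MII range. Pds5a changed by 0.96 on the log2 scale from MI to MII (95% interval -0.36 to 2.28) and 1.11 from GV to MII (-0.22 to 2.43; adjusted p = 0.288). Without GV 3 the latter was 1.70, and without MII 3 it was 0.66 and the change from MI to MII 0.52. With the mean of its 3 probe sets these changes were 0.37 and 0.28, and with pseudocount 64 they were 0.63 and 0.61. Its other probe sets lay below 16 on 6 and on 9 of the 9 arrays.

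Pds5b showed no shift at its brightest probe set (1435242_at), which read 104, 23.4 and 175 in GV, 121, 85.7 and 50 in MI, and 64.8, 117 and 85 in MII. The GV arrays spanned the range of both other stages. Pds5b changed by 0.01 on the log2 scale from GV to MI and 0.09 from GV to MII (95% interval -1.22 to 1.40). Its sign turned with single arrays: the change from GV to MII was -0.56 without GV 2 and 0.58 without GV 3. Its other probe sets lay below 16 on 7 and on 9 of the 9 arrays.

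Esco2, an acetyltransferase that establishes cohesion by modifying Smc3, was the steadiest of the 10 genes in GV. It read 909, 761 and 883 in GV, 1140, 807 and 564 in MI, and 910, 1429 and 1347 in MII at its brightest probe set (1428304_at). The lowest MII reading, 910, barely exceeded the highest GV reading, 909, and MI overlapped both. Esco2 changed by 0.50 on the log2 scale from GV to MII (95% interval -0.20 to 1.19; adjusted p = 0.374) and 0.57 from MI to MII (-0.12 to 1.27; adjusted p = 0.335). The dimmer probe set (1456311_x_at) read 65.9, 72.8 and 39 in GV and 83.9, 102 and 76.2 in MII, a change of 0.48.

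Counted by separation, 3 of the 10 brightest probe sets (Rad21, Nipbl and Esco2) had all MII arrays above all GV arrays, and none had them below. The background was 14.1% of genes above and 17.3% below, or 21.3% and 28.1% among genes with a mean at or above the median. From MI to MII, Pds5a alone had all MII arrays above, against 11.7% of genes, and none had them below, against 15.3%. From GV to MI, no cohesin gene separated in either direction, against 6.42% and 6% of genes. Over all 24 probe sets, 8 separated upward from GV to MII and none downward, against 13.9% and 14.3% of probe sets. Of these 8, 3 belong to Rad21, 2 to Nipbl, 2 to Esco2 and 1 to Smc3 (1450951_at, by a margin lost in rounding), so they are not independent of each other.

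**Figure D2:**
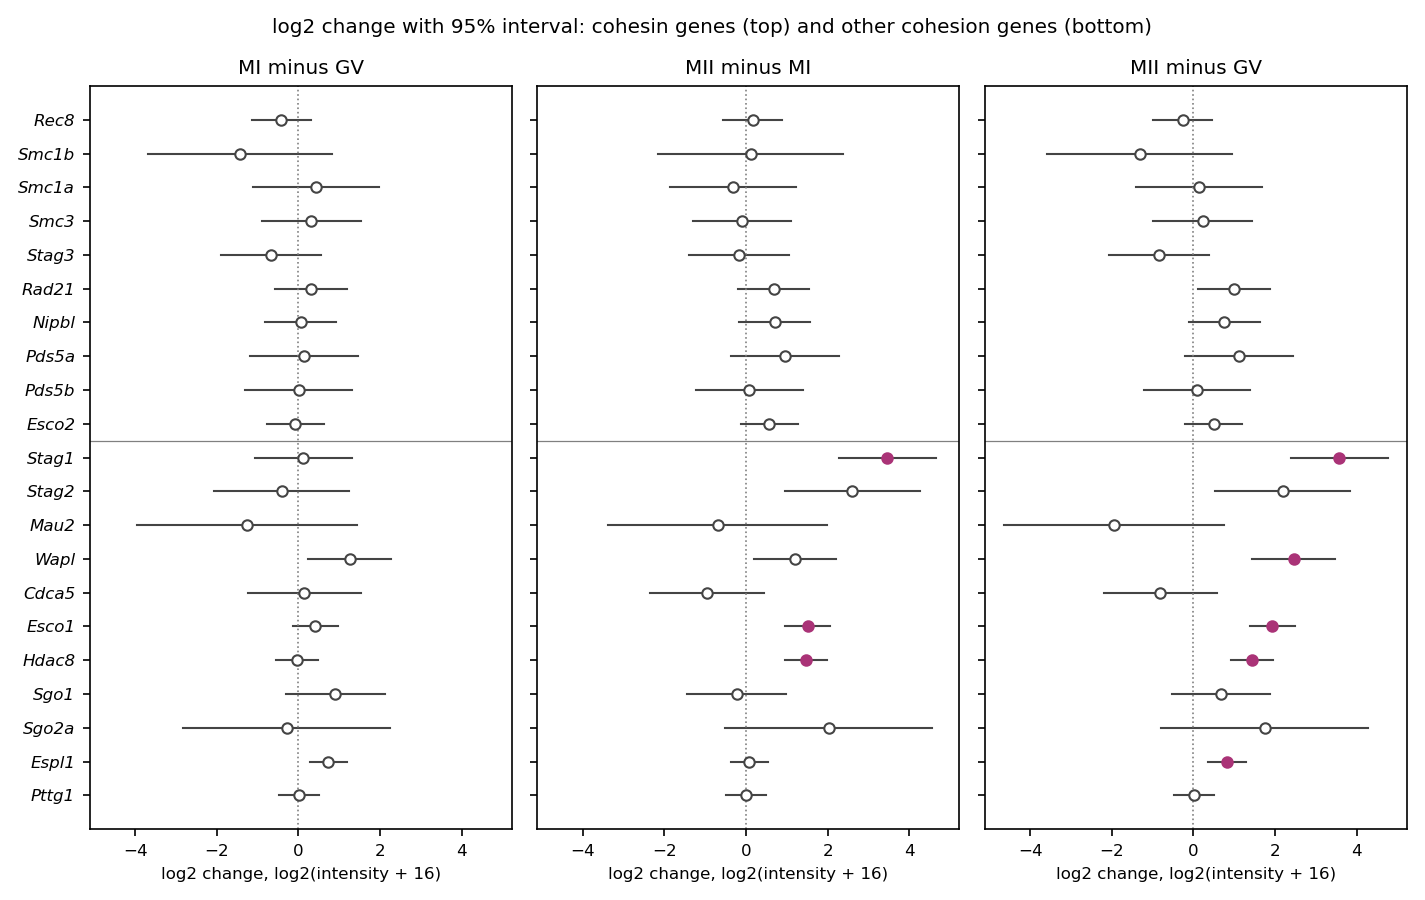
log2 change, on the log2(intensity + 16) scale, of each cohesin gene (above the line) and each other cohesion gene (below it) in the 3 comparisons, with 95% intervals of the limma fit. Filled points passed at an adjusted p under 0.05; no cohesin gene is filled, while Stag1, Esco1 and Hdac8 are filled in both comparisons with MII and Wapl and Espl1 in MII minus GV.

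Changes of paired subunits were set against each other on the same array, as a difference of log2 values. Such a difference shows unequal change between 2 probe sets and not which mRNA is more abundant. Stag3 minus Stag2 was -1.14, -0.13 and -0.60 in GV, -3.25, 0.86 and -0.24 in MI, and -2.75, -4.58 and -3.63 in MII. All MII values lay below all GV values, with Stag2 changing by 2.19 and Stag3 by -0.84 between these stages. The pair changed by -3.03 (exact permutation p = 0.10, adjusted p = 0.60). Stag3 lay below 16 on 2 of the 3 MII arrays, so the size of this change is set in part by the added 16: it was -4.31 with pseudocount 1 and -2.0 with 64. This p is the smallest that 3 against 3 arrays can give, so none of the 12 comparisons of pairs could pass.

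Rec8 minus Rad21 changed by -1.25 from GV to MII, also with no overlap (exact permutation p = 0.10, adjusted p = 0.60). Rad21 changed by 0.99 and Rec8 by -0.26 between these stages. The Rec8 values are near background, and without GV 3 the change of the pair was -0.74. Smc1b minus Smc1a was 0.79, 0.79 and 1.75 in GV, but -0.38, 1.20 and -3.07 in MI and 1.51, -1.86 and -0.63 in MII. Its change from GV to MII was -1.44 (exact permutation p = 0.30), with overlapping stages. Pds5b minus Pds5a changed by -1.02 from GV to MII (exact permutation p = 0.30), also with overlap.

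**Figure D3:**
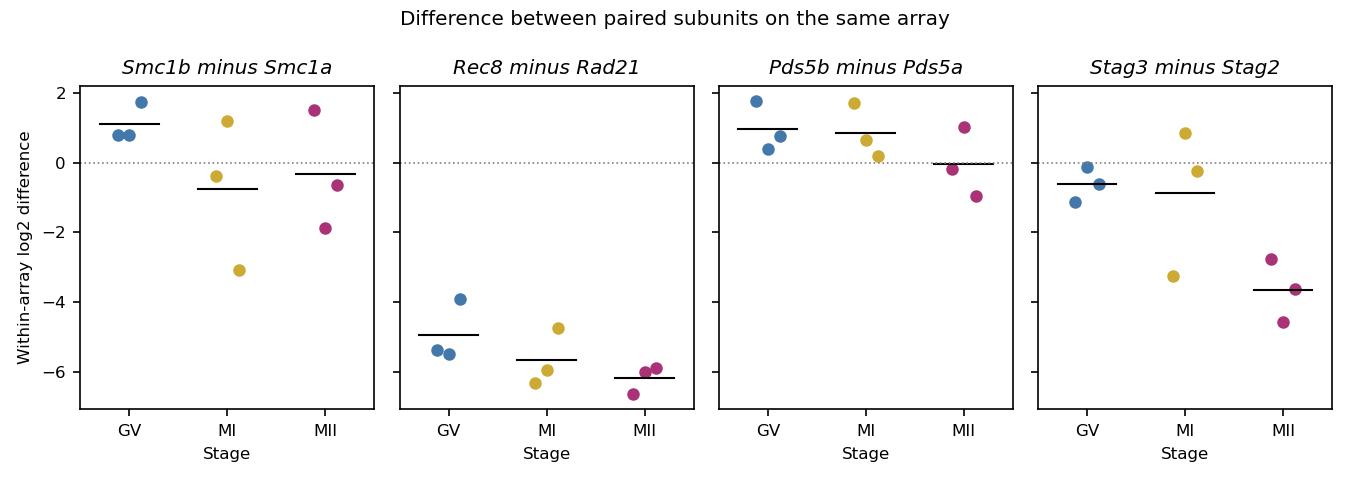
Within-array log2 difference between paired subunits by stage, 1 point per array and the mean as a bar. Stag3 minus Stag2 lies between -4.58 and -2.75 in MII, below all GV arrays, with Stag3 below an intensity of 16 on 2 of these 3 arrays, while Smc1b minus Smc1a overlaps among the 3 stages.

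The other genes of the cohesion cycle were taken from a list of 12, of which 11 were measured. From GV to MII, 5 of the 11 rose, none fell and 6 did not pass, against 5.46% of all genes that rose and 8.8% that fell. From MI to MII, 3 rose, none fell and 8 did not pass, against 2.54% and 6.78%. Of all genes that passed from MI to MII, 27.3% were rises, or 42.2% after quantile normalization and 41.3% with a common 95th percentile. From GV to MI none passed. The median log2 change of the list was 0.11, 1.20 and 1.43 for GV to MI, MI to MII and GV to MII. All 11 had a mean signal no lower than the median over genes. The shares given above for that signal, 17.8% and 27.4%, count rises and falls together. No share of rises alone was computed at that signal.

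Stag1, a Stag subunit of somatic cohesin, showed the largest change of the list. Its brightest probe set (1431921_a_at) read 125, 70.5 and 18.2 in GV, 96.3, 35.8 and 74.4 in MI, and 888, 758 and 984 in MII, with MII far above all other arrays. The log2 change was 3.46 from MI to MII (SE 0.52, adjusted p = 0.0069 by limma) and 3.57 from GV to MII (adjusted p = 0.00386). Among its other 5 probe sets, 1421940_at read 13.3, 16.2 and 14.5 in GV, 62.8, 68.2 and 76.1 in MI, and 353, 235 and 286 in MII. It rose from GV to MII when every probe set was tested (log2 change 3.31, adjusted p = 0.000526), as did 1434189_at (4.30, adjusted p = 0.02) and 1421939_a_at (2.95, adjusted p = 0.000721). In GV, 1421940_at and 1421939_a_at read close to 16, and 1434189_at read 19.5, 5.62 and 178. The sizes of the changes of these probe sets therefore depend on the added 16. Probe set 1450420_at did not pass (1.75, adjusted p = 0.29), and 1441724_at lay below 16 on 8 of 9 arrays.

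Stag2 is the paralogue of Stag1. Its brightest probe set (1421849_at) read 94.6, 59.2 and 36.7 in GV and 180, 15.1 and 14.4 in MI. In MII it read 352, 465 and 219. All MII arrays lay above all others, but the changes of 2.60 from MI to MII (adjusted p = 0.0631) and 2.19 from GV to MII (adjusted p = 0.086) did not pass. Both passed without MI 1 (adjusted p = 0.01 and 0.0113), after quantile normalization (0.0316 and 0.0456), with the same 95th percentile (0.0364 and 0.0492) and without the lowest 40% of genes (0.035 and 0.0484). With the replicate block the first passed (0.0414), and with the mean of its probe sets the second (0.0388). The other probe set (1450396_at) read 109, 11.2 and 11.5 in GV and 180, 91.5 and 19.2 in MI. In MII it read 180, 488 and 449. It changed by 1.00 from GV to MI, against -0.41 at the brightest. In the limma fit over all probe sets, its changes of 1.98 from MI to MII (adjusted p = 0.238) and 2.98 from GV to MII (adjusted p = 0.0551) did not pass.

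Genes for acetylation and release of the ring also rose. Esco1, an acetyltransferase of Smc3, read 477, 299 and 363 in GV, 522, 417 and 583 in MI, and 1355, 1609 and 1443 in MII. The stages GV and MI overlapped and MII stood clear of both, with a log2 change of 1.52 from MI to MII (adjusted p = 0.00826; 0.0604 with pseudocount 1) and 1.93 from GV to MII (adjusted p = 0.00224). Its other probe set (1424324_at) changed by 1.85 and 2.13, and neither passed in the limma fit over all probe sets (adjusted p = 0.128 and 0.0605). Hdac8, the deacetylase of Smc3, read 66.1, 76.2 and 63.3 in GV, 66.4, 77.3 and 56.6 in MI, and 256, 225 and 165 in MII. Its changes were 1.47 (adjusted p = 0.00741) and 1.43 (adjusted p = 0.00527), and both calls were lost with an intensity trend in the fit (adjusted p = 0.103 and 0.086).

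Wapl, which opens the ring and takes it off chromatin, read 831, 446 and 307 in GV, 1861, 1273 and 692 in MI, and 2868, 2555 and 2804 in MII. Only its GV to MII change of 2.46 passed (adjusted p = 0.00893); the steps were 1.25 (adjusted p = 0.611) and 1.20 (adjusted p = 0.15, or 0.0398 after quantile normalization). The second brightest Wapl probe set (1434835_at) changed by 1.59 from GV to MII (adjusted p = 0.0706 over probe sets), and the mean of all 5 gave 1.16.

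Of the genes that cut or guard cohesin, Espl1, which encodes separase, read 1849, 1650 and 1687 in GV, 3006, 3353 and 2382 in MI, and 3272, 2980 and 2947 in MII. All MI and MII arrays lay above all GV arrays; the change from GV to MII was 0.82 (SE 0.20, adjusted p = 0.0296), and that from GV to MI 0.74 (adjusted p = 0.477). The call was lost without any single GV or MII array (adjusted p from 0.0604 to 0.0896), with pseudocount 1 (0.234) and without the lowest 40% of genes (0.0967). Pttg1, or securin, which holds separase inactive, read 7533, 8968 and 8416 in GV, 8920, 9216 and 7029 in MI, and 7115, 8584 and 9644 in MII. Its log2 change from GV to MII was 0.02 with a 95% interval of -0.47 to 0.51.

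Sgo2a, the shugoshin that guards Rec8 at meiotic centromeres, read 3098, 128 and 199 in GV, 554, 595 and 138 in MI, and 1747, 1226 and 1655 in MII. The array GV 1 stood far above the other GV arrays, and all MII arrays lay above all MI arrays. The change from GV to MII was 1.75 (adjusted p = 0.397), and without GV 1 it was 3.13 (adjusted p = 0.0221). The remaining list genes, Mau2, Cdca5 and Sgo1, did not pass, with log2 changes from GV to MII of -1.95, -0.82 and 0.68 at the brightest probe sets. The other Mau2 probe sets changed by -0.20, 0.47 and -0.64, so they did not share the size or a single direction. Those of Cdca5 and Sgo1 changed by -0.41 and 0.40.

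**Figure D4:**
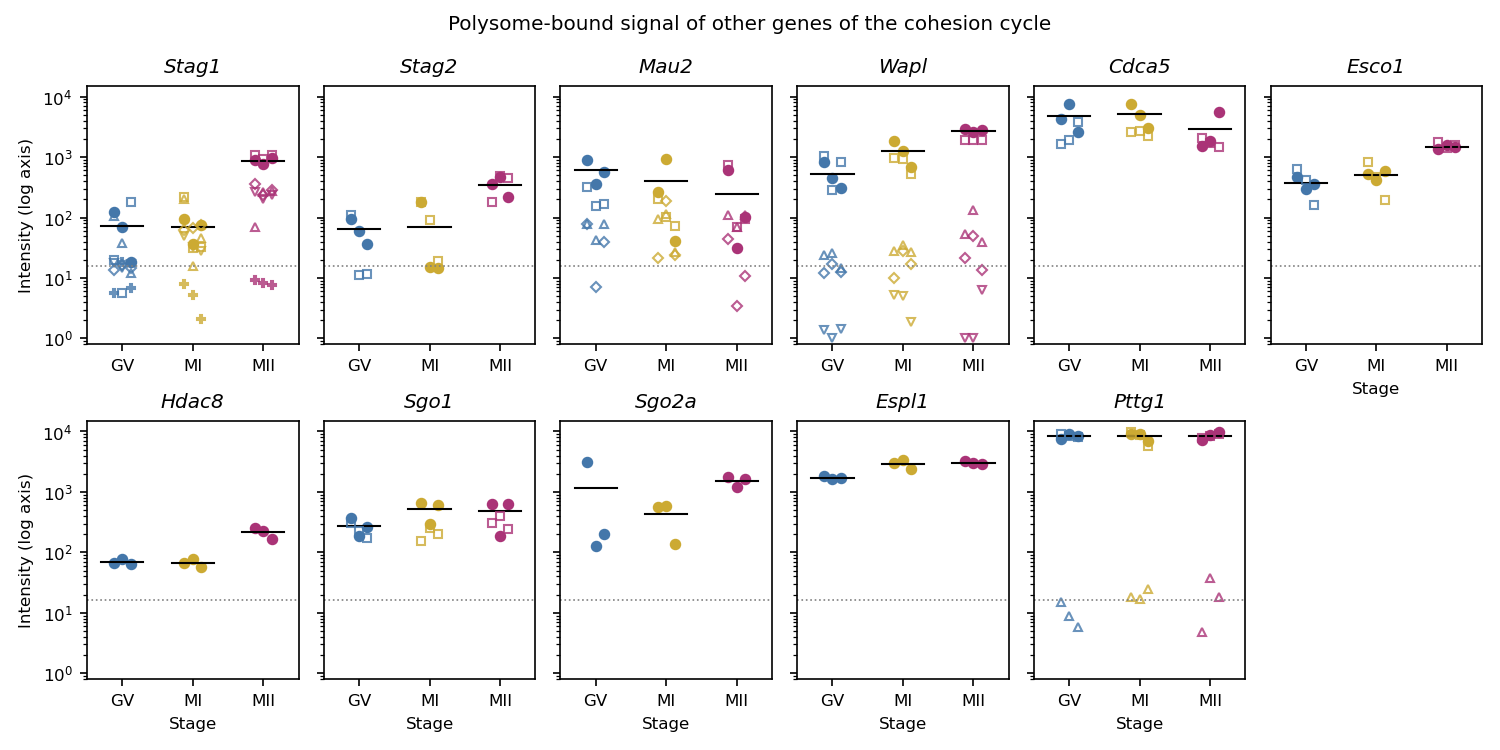
Intensity (log axis) of 11 other cohesion genes by stage, with 1 point per array and probe set; filled circles are the brightest probe set, bars its mean, and the dotted line an intensity of 16. Stag1, Esco1, Hdac8 and Wapl lie higher on all MII arrays than on all GV and MI arrays at the brightest probe set.

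Beside these rises, the summed signal of other markers also moved with stage. That of the 5 measured blood, immune and endothelial markers was 155 to 339 in GV, 111 to 596 in MI and 612 to 858 in MII, most of it from Pecam1 (569, 627 and 785 in MII), while Lyz2 lay below 16 on all arrays. That of the 10 oocyte markers was 45419 to 50591 in GV, 39975 to 42313 in MI and 18171 to 25474 in MII; 5 of the 10 fell from GV to MII and 1, Dazl, rose. That of the 3 measured theca and luteal markers was 540 to 840 in GV, 432 to 806 in MI and 110 to 474 in MII, with Cyp17a1 below 16 throughout. Of these, Cyp11a1 read 782, 680 and 130 in GV and 394, 19.5 and 75.3 in MII. None of the blood, granulosa or theca markers rose from GV to MII by the test. The part of other cells in the rises of Stag1, Esco1, Hdac8, Wapl and Espl1 was not tested.

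The genes whose profile over the 9 arrays was most like that of each germ-cell subunit were taken by Pearson correlation among 9097 genes with a mean at or above the median. For Rec8 these were St3gal6 (0.94), Fam20b (0.94) and Uap1l1 (0.92). For Stag3 they were Vapb (0.96), Letm1 (0.94) and Ostf1 (0.93), and for Smc1b they were Tbce (0.91), Cfap53 (0.90) and Limd2 (0.90). These are the highest of 9097 correlations over 9 points that share their arrays, and most Rec8 readings behind them lie near background.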

How the data were processed

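The authors deposited 1 table of linear intensity values, with probe sets down and arrays across. Per the labels' protocols, the RNA was cleaned on columns, amplified linearly with a kit for fixed-tissue RNA, fragmented and biotin-labelled. How probe sets were summarised, corrected for background or scaled is not stated there. Of 45101 probe sets, 64 controls were left out; 34945 had 1 gene symbol in the platform annotation, 932 several and 9160 none. The gene table used (assembly GRCm38.p6) held 18032 of 18193 genes, and no coordinates are given because the arrays name no build.

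Values were transformed to log2(intensity + 16) with no filter. The probe set with the highest mean stood for a gene. One linear model with the stage means as terms took all 9 arrays (lmFit and eBayes in limma 3.58.1, R 4.3.3; two-sided), with Benjamini-Hochberg adjustment over 18193 genes; a second fit took all 34945 probe sets. Intervals are 95% intervals of the fit, and ± is the SD of 3 arrays. Paired subunits were compared with exact two-sided permutation tests, adjusted over 12 tests. The fit was tested on simulated data.

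Named genes were all 10 cohesin genes, Sgo2a, Espl1, Pttg1 and Stag2, up to 4 further regulators and up to 2 condensin or SMC5/6 genes that passed per comparison (largest change first), and the 3 genes of most like profile for Rec8, Smc1b and Stag3. Mau2, Cdca5 and Sgo1 are named to complete their list. The members and lists were chosen with earlier results of these data known. Rad21l was not matched to a probe set and is not analysed here.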

Additional observations from a re-analysis of the deposited data

How the results depend on the processing

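The alternatives were run (pseudocount 1 and 64, quantile normalization, arrays centred on their median, arrays scaled to the same 95th percentile, without the lowest 40% of genes, the mean of all probe sets, every probe set tested, a replicate block, an intensity trend), and each of the 9 arrays was left out in turn. The 30 changes of the cohesin genes (10 genes, 3 comparisons) gave 564 values under these settings: 528 kept their sign, 36 turned it and 5 passed, all of them for Rad21. Many of the 528 could not turn. The filter, every probe set tested, the replicate block and the intensity trend alter the p-values but not the change. The same holds for leaving out an array of a stage outside the comparison. The count of kept signs therefore overstates how steady the directions were. The filter left out Rec8 and Stag3. The number of cohesin genes that passed from GV to MII was 1 with probe sets averaged, with a common 95th percentile and after quantile normalization, and 0 to 1 without single arrays. With probe sets averaged it was also 1 from MI to MII and 1 by the F test. The regulators that rose from MI to MII numbered 5 after quantile normalization and 2 to 4 under the other alternatives. Of all genes called from MI to MII, 27.3% rose, against 42.2% after quantile normalization and 41.3% with the same 95th percentile. From GV to MII these shares were 38.3%, 47.1% and 48.1%. With pseudocount 1, 1116 genes passed from MI to MII in place of 1695, and 846, 931 and 1025 did without MI 2, MII 3 and MI 1. The 38 genes called for the difference between the steps became 0 to 122.

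No change that turned its sign had passed the test, and the cause was not tested. With pseudocount 64, Pds5b was -0.0497 for MI minus GV and -0.0043 for MII minus GV. After quantile normalization, Smc3 was 0.061 and Pttg1 -0.0081 for MII minus MI, and Pds5b was -0.0676 for MI minus GV. Median centring put Pttg1 at -0.0013 and the same 95th percentile put Smc3 at 0.105 for MII minus MI. The mean of all probe sets gave, for MII minus MI, 0.099 for Smc1a, 0.57 for Smc3, -0.21 for Nipbl and -0.0028 for Pttg1, and, for MI minus GV, -0.13 for Pds5b and 0.29 for Stag2.

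Without single arrays, these changes crossed 0 for MI minus GV: Smc1a (-0.26 to 0.89), Smc3 (-0.32 to 0.70), Nipbl (-0.22 to 0.38), Pds5a (-0.20 to 0.74), Pds5b (-0.64 to 0.50), Esco2 (-0.32 to 0.17), Stag1 (-0.45 to 0.57), Stag2 (-1.31 to 0.039), Hdac8 (-0.13 to 0.055), Sgo2a (-1.12 to 1.10), Pttg1 (-0.065 to 0.13), Pds5b minus Pds5a (-0.57 to 0.27) and Stag3 minus Stag2 (-1.12 to 0.93). For MII minus MI they were Smc1b (-0.57 to 0.84), Smc1a (-0.75 to 0.39), Smc3 (-0.48 to 0.54), Stag3 (-0.67 to 0.26), Pds5b (-0.20 to 0.33), Espl1 (-0.051 to 0.19), Pttg1 (-0.11 to 0.13) and Smc1b minus Smc1a (-0.74 to 1.40). For MII minus GV they were Rec8 (-0.47 to 0.083), Smc1a (-0.35 to 0.58), Smc3 (-0.026 to 0.46), Pds5b (-0.56 to 0.58) and Pttg1 (-0.084 to 0.14).

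Replicate numbers are shared by the stages. Same-numbered arrays deviated together only weakly (correlations 0.001 to 0.226 over 9 pairs, 3 of them over 0.1). Yet 7 of 9 arrays correlated best with their own number in both other stages. The main fit did not take same-numbered arrays as pairs, and the replicate block did. With the replicate block, 0 cohesin genes passed in any comparison, Rad21 had an adjusted p of 0.0933 from GV to MII, and 4 regulators rose from MI to MII in place of 3, the added gene being Stag2. Rec8 read below 16 on 7 of 9 arrays and Stag3 on 4 of 9, which limits what their changes can show.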

Other observations

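Condensin, which compacts chromosomes, and the SMC5/6 complex, which acts in repair, are built on SMC proteins related to those of cohesin. Of 14 measured genes of these complexes, 2 rose and 2 fell from GV to MII and 10 did not pass, and the median log2 change was 0.52. All 14 had a mean signal no lower than the median over genes, where 27.4% of genes passed, so the count of 4 is near that background. From MI to MII, 1 fell, none rose and 13 did not pass (median 0.10), and from GV to MI none passed (limma, adjusted p under 0.05 over all genes). Ncapg and Ncapg2, the equivalent subunits of condensin I and condensin II, moved in opposite directions. Ncapg read 2941, 2992 and 3579 in GV, 3289, 3470 and 2993 in MI, and 1402, 1166 and 1223 in MII, with MII below all other arrays (log2 change -1.35 from MI to MII, adjusted p = 0.00564; with pseudocount 1 no gene of the 14 fell from MI to MII). Ncapg2 read 581, 403 and 398 in GV, 1027, 1185 and 849 in MI, and 1842, 1423 and 1706 in MII, with no overlap between any stages (log2 change 1.82 from GV to MII, adjusted p = 0.00275).

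Smc4, the SMC subunit shared by both condensins, which was named after its values were seen, fell from GV to MII (log2 change -1.36, adjusted p = 0.0122), from 3506, 5776 and 4433 in GV to 1465, 1619 and 2212 in MII. Nsmce3, a subunit of the SMC5/6 complex, rose by 1.54 on the log2 scale (adjusted p = 0.0287), from 291, 301 and 192 to 484, 1329 and 717. From GV to MII, 1 gene of the 14 rose and none fell with pseudocount 1, 3 rose and 1 fell after quantile normalization, 3 rose and 2 fell with a common 95th percentile, and 2 rose and 1 fell with probe sets averaged. Without GV 1, GV 2, GV 3, MII 2 or MII 3, 1 rose in place of 2, and without MII 2, 3 fell.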
